A study of Homo sapiens with 6 samples.

Results

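Accessible sites were examined around 10 genes of chromatin remodelling enzymes, namely the BAF subunits SMARCA4, SMARCA2, SMARCC1, SMARCB1, ARID1A and ARID1B and the CHD family members CHD1, CHD4, CHD7 and CHD8. The members were all ATAC-seq summits inside each gene and within 20 kb of either end, with gene positions from RefSeq on GRCh38. A summit is the single base at which the read pile-up in a called peak is highest. These windows held 374 of the 356720 summits in the 6 libraries, and 132 loci of 123131 in all. A locus was centred on its strongest summit and took in summits within 250 bp of that centre. A summit near several centres could count at each.

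The libraries came from H1 cells, an established human embryonic stem cell line grown in mTeSR1 on Matrigel. All cells received a virus carrying a short hairpin RNA and were selected with puromycin. The 4 shHNRNPU libraries came from 2 hairpins against HNRNPU, an RNA-binding protein of the nucleus, with 2 repeats of each hairpin (#1 and #2), and the 2 shLUC libraries were repeats of a control hairpin labelled as targeting LUC. The labels do not say that repeats were separate cultures, so the spread between them may be technical, and the files do not measure how far HNRNPU was lowered. The lists held between 52168 and 63519 summits, and sequencing depth is unknown, so where no summit is listed, no peak was called, and the chromatin there may still be open. Of 7 pluripotency genes fixed as markers, 6 were in the gene table and all of these had a summit near an end in all 6 libraries, but so did 10 of 11 markers of other cell types, so summits at gene ends did not separate cell types. The 10 genes were selected on knowledge of the presence, positions and score percentiles of these same summits in shHNRNPU and shLUC, so the values are a description and carry no p-value.

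BAF complexes, the mammalian relatives of yeast SWI/SNF, use ATP to slide or eject nucleosomes, and in embryonic stem cells they keep enhancers and promoters open. Each complex carries either SMARCA4 or SMARCA2 as its motor, on a scaffold that includes SMARCC1 and SMARCB1, and ARID1A or ARID1B marks the canonical form. CHD proteins are remodelling motors with chromodomains. CHD1 works at actively transcribed genes, CHD4 is the motor of the NuRD complex, CHD7 acts at enhancers and is mutated in CHARGE syndrome, and CHD8 is a recurrent autism gene.

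The sequences below are the 250 bases before a start, from RefSeq on GRCh38.p14, shown for the gene whose start summit lay elsewhere in the control libraries (CHD1) and for a start whose summit was stronger in all 4 shHNRNPU libraries (SMARCA4). Each is written 5′ to 3′ on the strand of the gene. Capitals mark the 21 bases centred on each summit that lay in the window, merged where they touch.
CHD1, chr5:98929008-98929257, minus strand: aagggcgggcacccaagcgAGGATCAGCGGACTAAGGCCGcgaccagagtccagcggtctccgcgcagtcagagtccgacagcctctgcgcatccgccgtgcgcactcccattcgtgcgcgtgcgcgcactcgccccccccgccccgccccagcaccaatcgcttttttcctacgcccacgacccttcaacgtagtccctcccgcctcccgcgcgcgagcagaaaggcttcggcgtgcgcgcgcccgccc
SMARCA4, chr19:10960780-10961029, plus strand: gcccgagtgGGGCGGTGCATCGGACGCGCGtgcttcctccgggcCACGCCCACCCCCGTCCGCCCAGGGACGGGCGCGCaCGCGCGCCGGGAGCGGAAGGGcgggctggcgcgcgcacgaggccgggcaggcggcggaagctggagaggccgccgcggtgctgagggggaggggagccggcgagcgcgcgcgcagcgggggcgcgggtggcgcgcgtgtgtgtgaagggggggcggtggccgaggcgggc
In CHD1 the capitals mark the single base position shared by repeat 1 of both HNRNPU hairpins. The summits of the shLUC libraries lay farther upstream than these 250 bases, and those of repeat 2 of both HNRNPU hairpins lay past the start. In SMARCA4 the capitals mark 5 summits, those of both shLUC libraries and of every shHNRNPU library except #2 repeat 1, which was 260 bp before the start. The CHD1 stretch held 36 CG pairs and the SMARCA4 stretch held 44, against a median of 11 over all RefSeq promoters in the table.

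CHD1 was the member with the clearest difference in position. Every library had exactly 1 summit within 1000 bp of its start, at position 98929007 on chromosome 5. The summit lay 221 bp upstream of the start in shHNRNPU #1 repeat 1, 17 bp downstream in #1 repeat 2, 221 bp upstream in #2 repeat 1 and 34 bp downstream in #2 repeat 2. In shLUC it lay 511 bp upstream in repeat 1 and 596 bp upstream in repeat 2. The groups did not overlap. The mean distance upstream was 97.75 ± 142 bp (SD, n = 4) with shHNRNPU and 553.5 ± 60.1 bp (SD, n = 2) with shLUC, a difference of 455.75 bp, and the closest pair of libraries across the groups was 290 bp apart. Because the groups did not overlap, the order is the same for any pairing of their libraries.

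The CHD1 summit was strong in every library. Its score, the −log10 of the q-value, was 41.0, 34.4, 31.3 and 30.4 in the shHNRNPU libraries (#1 repeats 1 and 2, then #2 repeats 1 and 2) and 27.6 and 19.6 in shLUC. Scores were compared between libraries as percentiles within each library's own list, where 100 is the strongest summit. On that scale the CHD1 summit stood at 93.8, 91.5, 92.6 and 88.7 with shHNRNPU and at 89.6 and 83.6 with shLUC, and the groups overlapped. The start of a long noncoding RNA on the other strand, LOC100289230, lies 127 bp upstream of the CHD1 start, so both shLUC summits and those of repeat 1 of each HNRNPU hairpin were beyond it, and those of repeat 2 were on the CHD1 side of both starts.

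**Figure D1:**
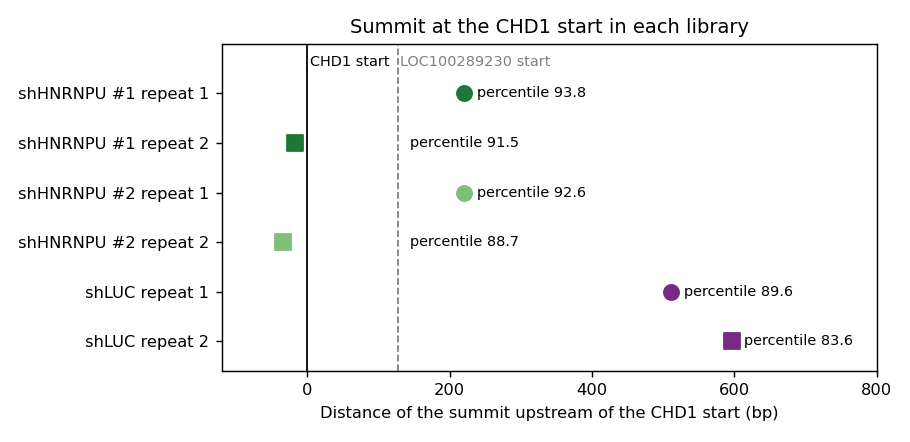
Position of the summit at the CHD1 start in each library, in bp upstream of the start (horizontal axis), with the percentile of its score beside the point. Circles are repeat 1 and squares are repeat 2. The 4 shHNRNPU summits sit from 34 bp downstream to 221 bp upstream, and the 2 shLUC summits at 511 and 596 bp upstream.

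By the matching rule the shLUC site at CHD1 counted as a lost locus, one with a summit within 250 bp in both shLUC libraries and in 0 of 4 shHNRNPU libraries. It was also the only lost locus among the 10 genes with a shHNRNPU summit over 250 and up to 1000 bp away in all 4 libraries. Over the genome 227 lost loci had this form, or 9.57% of all lost loci, and the share was 53.4% for lost loci within 2000 bp of the end of a protein-coding gene, against 4.43% for those farther away. A displaced summit is thus the commoner form of a lost locus beside gene ends, where CHD1 lies. The genes with this form whose lowest shLUC percentile was closest to the 83.6 of CHD1 were EOLA1 (81.5), HMGN1 (80.1), NQO2 (78.6), PANK4 (75.0) and RASD1 (74.9). At HMGN1, which encodes a nucleosome-binding protein, the shHNRNPU summits were 361 to 412 bp from the shLUC site.

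Around the 10 genes as a whole the number of summits was alike in both groups. The counts were 65 and 67 with shHNRNPU #1, 57 and 57 with #2, and 67 and 61 with shLUC. Means were 61.5 ± 5.26 (SD, n = 4) and 64.0 ± 4.24 (SD, n = 2), and the difference of -2.5 summits was smaller than either SD. The 6 BAF genes had 43.25 ± 4.79 summits with shHNRNPU and 47.0 ± 4.24 with shLUC, and the 4 CHD genes had 18.25 ± 1.71 and 17.0 ± 0. Both pairs of groups overlapped.

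Of the 132 loci, 30 were present in all 6 libraries, or 22.7%, against 20.7% of all loci in the genome. Those present in 1 library numbered 50, or 37.9%, against 38.0% of all loci. Of the 46 loci with a summit in both shLUC libraries, 5 were lost (10.9%), against 5.68% of such loci over the genome. Of the 33 loci in all 4 shHNRNPU libraries, 1 was gained (3.03%), against 3.59% over the genome. A gained locus had no shLUC summit within 250 bp of its centre. The lost loci were 3 at SMARCA2, 1 at ARID1B and 1 at CHD1, and the gained locus lay in the flank of SMARCB1. Leaving out shLUC repeat 1 or repeat 2 lets a locus count as lost on 1 control library. It gave 17 of 61 lost loci (genome 18.8%) and 15 of 70 (genome 18.9%). Matching within 500 bp instead of 250 bp left 3 of 46 lost (genome 5.01%) and 0 of 35 gained (genome 3.17%). The sites no longer lost were those at CHD1 and at 2200662 beside SMARCA2.

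By hairpin, #1 lacked a summit in both its libraries at 6 of the 46 shLUC loci (genome 10.4%), and #2 at 5 of 46 (genome 11.9%). In the other direction, 8 of the 46 loci in both #1 libraries had no shLUC summit (17.4%, genome 10.5%), as did 6 of the 44 loci in both #2 libraries (13.6%, genome 7.79%). By place, 20 loci lay within 1000 bp of a start (of a gene end for SMARCC1 and CHD7, which had no start in the promoter table), 71 elsewhere in the genes and 41 in the flanks. The loci in all 6 libraries were 8 of 20 at starts, 16 of 41 in the flanks and 6 of 71 in gene bodies. Some flanks hold starts of neighbouring genes, and the flank site at 21456266 lies close to the upper end of CHD8. Genome shares by place were not computed, and the share over all loci was 20.7%. Many gene body loci were those of ARID1B, which had 46 of its 49 loci inside the gene and 29 in 1 library.

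**Figure D2:**
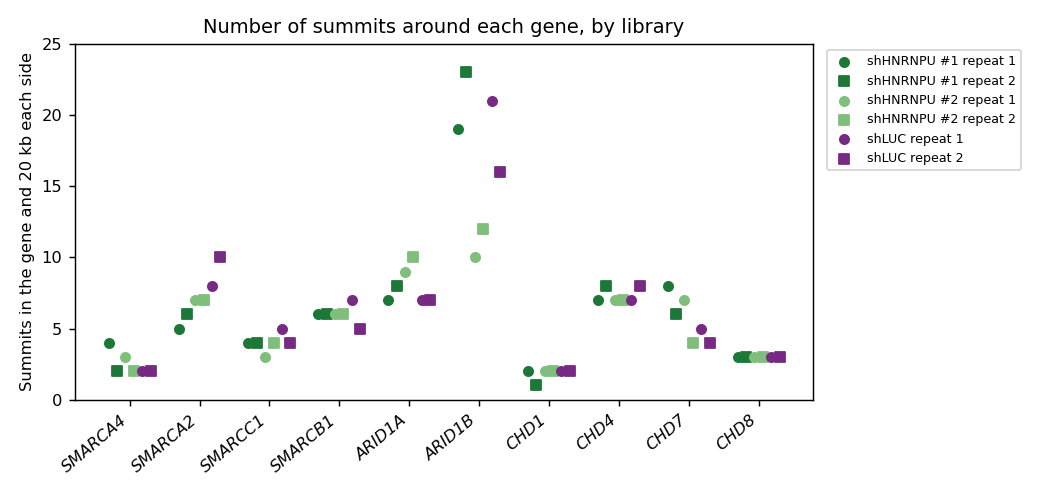
Number of summits in each gene and the 20 kb on either side (vertical axis), with 1 point per library. SMARCA2 is the only gene where all 4 shHNRNPU counts (5 to 7) are below both shLUC counts (8 and 10), and at ARID1B the 2 libraries of hairpin #2 (10 and 12) are below the other 4 (16 to 23).

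The motor genes SMARCA4 and SMARCA2 differed from each other in what varied. SMARCA4 (chromosome 19, 10961030 to 11062273), the main BAF motor of embryonic stem cells, had few sites, with 4 and 2 summits for #1, 3 and 2 for #2, and 2 and 2 for shLUC. Its start summit, centred 160 bp before the start, was among the strongest of each list. The percentile was 98.0, 97.2, 94.4 and 97.1 with shHNRNPU and 90.6 and 92.6 with shLUC. All 4 shHNRNPU values were above both shLUC values, with means of 96.7 ± 1.56 and 91.6 ± 1.37, a difference of 5.13 points. The only other locus here in both groups, at 11036039 in the gene body, was weak, with percentiles of 14.3 to 37.1, and was missing in shHNRNPU #2 repeat 2.

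SMARCA2 (chromosome 9, 2015347 to 2193620), the alternative BAF motor, was the only one of the 10 genes with fewer summits in all 4 shHNRNPU libraries. It had 5 and 6 summits with #1, 7 and 7 with #2, and 8 and 10 with shLUC. The means were 6.25 ± 0.957 and 9.0 ± 1.41, a difference of -2.75 summits. Over the genome 3.92% of protein-coding genes with a summit had fewer in all 4 shHNRNPU libraries, and 4.5% of those with a mean count within 20% of that of SMARCA2, and 1 gene of 10 is a single case beside these shares. With each list cut to its 52168 strongest summits the counts were 4, 5, 6 and 7 against 7 and 9, and the groups touched.

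SMARCA2 held 3 of the 5 lost loci. The site at 2018997, in the gene and 2948 bp before the nearest listed SMARCA2 start, had percentiles of 57.5 and 50.5 in shLUC, and the nearest shHNRNPU summits were 2504 to 3857 bp away. The site at 2116278, deeper in the gene, stood at 50.9 and 67.6, and the nearest shHNRNPU summit was 21903 bp or more away in every library. The site at 2200662, past the gene and within LOC107987043, stood at 61.0 and 44.4. There shHNRNPU #1 repeat 2 had a summit 406 bp away, and in the other 3 shHNRNPU libraries the nearest was 18664 bp or more away. All 3 sites were of middling strength in the control lists. The SMARCA2 start summit, by contrast, lay 156 to 207 bp before the start in all 6 libraries, at percentiles of 90.2, 89.0, 93.0 and 84.7 with shHNRNPU and 89.5 and 88.5 with shLUC, and the groups overlapped.

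**Figure D3:**
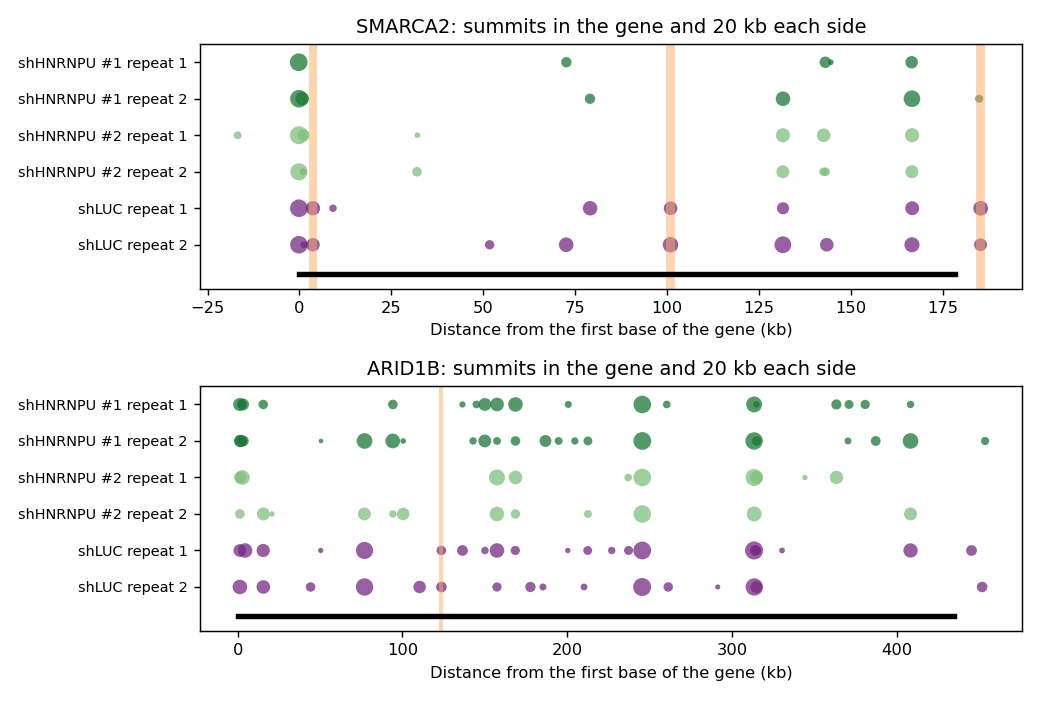
Summits of each library across SMARCA2 (top) and ARID1B (bottom), by distance from the first base of the gene in kb, with point size rising with the score percentile. The black bar is the gene and shaded strips mark lost loci. The SMARCA2 panel has 3 strips where both shLUC libraries have a summit, and the ARID1B panel has 1.

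The scaffold genes had strong summits at or near their ends. SMARCC1 had 4, 4, 3 and 4 summits with shHNRNPU and 5 and 4 with shLUC over a window of few sites, 2.54 loci per 100 kb, the lowest density of the 10 genes. Its strongest summit lay 77 bp past the upper end of the gene at 47781970 on chromosome 3, with percentiles of 97.5, 97.9, 95.1 and 96.5 with shHNRNPU and 94.7 and 90.7 with shLUC. All 4 shHNRNPU values were above both shLUC values, by 4.02 points between the means, although the closest values, 95.1 and 94.7, differed little.

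SMARCB1, the core subunit lost in rhabdoid tumours, had 6 summits in each shHNRNPU library and 7 and 5 with shLUC. Its start summit stood at 80.2, 85.7, 90.6 and 75.3 with shHNRNPU and at 66.3 and 80.9 with shLUC, with overlapping groups. The one gained locus of the 10 windows was 19060 bp before SMARCB1, at 23767906 on chromosome 22, and lay 66 bp into CHCHD10, a gene of a mitochondrial protein. Its percentile was 61.1, 72.9, 41.6 and 59.5 in the 4 shHNRNPU libraries. In shLUC repeat 1 a summit lay 448 bp from the locus centre, and in repeat 2 the nearest was 4803 bp away. The shHNRNPU #2 repeat 2 summit, 247 bp from that centre, was 201 bp from the shLUC repeat 1 summit. These summits were thus within the matching distance of each other. Thus the site was near an existing summit in 1 of 2 control libraries. Of all gained loci, 33.2% had such a summit over 250 and up to 1000 bp away in at least 1 shLUC library. On the other side of SMARCB1, the summit 74 bp before the start of SLC2A11, a sugar transporter gene, stood at 93.4, 90.6, 95.0 and 95.8 with shHNRNPU and at 82.7 and 90.5 with shLUC, higher in all 4 by a narrow margin.

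ARID1A and ARID1B, whose products take the same place in alternative BAF complexes, differed widely in the number of their sites. ARID1A had 7, 8, 9 and 10 summits with shHNRNPU and 7 and 7 with shLUC, and 6 of its 11 loci were in all 6 libraries. Its start summit stood at 79.5, 87.4, 87.4 and 81.2 with shHNRNPU and 84.0 and 84.6 with shLUC, with no separation. Within the gene, a site at 26744242 on chromosome 1, 48227 bp after the start, was weaker in all 4 shHNRNPU libraries. Its percentile was 58.3, 51.4, 50.0 and 59.9, against 73.7 and 73.5 with shLUC. A site 2836 bp before the start, within LOC101928728, went the other way, with 63.8, 71.4, 77.7 and 54.9 against 38.6 and 53.4.

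ARID1B, on chromosome 6 from 156776026 to 157210779, had 49 loci, the most of the 10 genes, and 29 of them were in 1 library. It had 19 and 23 summits with #1, 10 and 12 with #2, and 21 and 16 with shLUC. Hairpin #1 thus overlapped shLUC, and both #2 libraries were below the other 4 libraries. This form, chosen after the values were seen, was present in 3.04% of genes with a summit and in 10.3% of genes with a mean of at least 10 summits. When weaker summits, with scores below 5, were left out, the counts were 7 and 9 with #1, 8 and 7 with #2, and 8 and 7 with shLUC, and the gap was no longer there. The #2 lists were also the shortest of the 6, at 58414 and 52168 summits, and cutting all lists to the 52168 strongest summits left 15, 15, 9 and 12 with shHNRNPU and 16 and 13 with shLUC.

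The lost locus in ARID1B, at 156899707, was weak, with percentiles of 22.2 and 28.7 in shLUC and the nearest shHNRNPU summit 12718 bp away. Its start summit was the weakest of the 10 genes in each shHNRNPU library, though in shLUC the mean at the CHD4 start was lower (45.9 against 51.2). It stood at 46.6, 41.2, 38.5 and 22.4 with shHNRNPU and 43.5 and 58.9 with shLUC. Its strongest site, at 157021522 inside the gene, was steady at 89.0, 91.0, 89.0 and 88.0 with shHNRNPU and 91.1 and 93.2 with shLUC. The shHNRNPU values were all lower there, and the closest values, 91.0 and 91.1, were nearly equal.

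CHD4 had the densest window, with 14.2 loci per 100 kb on chromosome 12. It had 7, 8, 7 and 7 summits with shHNRNPU and 7 and 8 with shLUC. Its strongest locus within 1000 bp of the listed start was centred 850 bp upstream of that start, at 6607301, and was of middling strength. The listed start, at 6606451, lies inside the gene, whose upper end is at 6607379. The locus was thus within CHD4, close to that end. Its gene is read from the minus strand. The percentile of the locus was 67.3, 62.4, 69.8 and 57.6 with shHNRNPU and 55.5 and 36.4 with shLUC. The means were 64.3 ± 5.43 and 45.9 ± 13.6, a difference of 18.3 points, the largest at any of the 10 starts, and it came with the widest shLUC spread.

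CHD7, on chromosome 8, had 8 and 6 summits with #1, 7 and 4 with #2, and 5 and 4 with shLUC. The summit by its gene end stood at 94.0, 80.4, 89.9 and 95.6 with shHNRNPU and at 86.0 and 91.3 with shLUC, with overlapping groups. Sites at 60680016, 60693719 and 60759371 in the gene were called in both #1 libraries and in no other library, at percentiles from 2.4 to 58.7. A site at 60676460 was called in both shLUC libraries (67.9 and 66.3) and in shHNRNPU #2 repeat 1 (45.5). CHD8 had 3 summits in each of the 6 libraries, at the same 3 loci. The listed CHD8 start, at 21437275 on chromosome 14, lies inside the gene, which is read from the minus strand. The summit at that start stood at 91.1, 91.8, 93.8 and 95.6 with shHNRNPU and 93.0 and 92.0 with shLUC. The site at 21456266 was 143 bp past the upper end of the gene, the end at which a minus-strand gene begins. It ranged from 97.5 to 99.2. The third locus, at 21384377 in the flank, stood at 88.7, 90.5, 91.6 and 92.5 with shHNRNPU and at 81.7 and 93.2 with shLUC, so the groups overlapped and the shLUC repeats were apart.

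**Figure D4:**
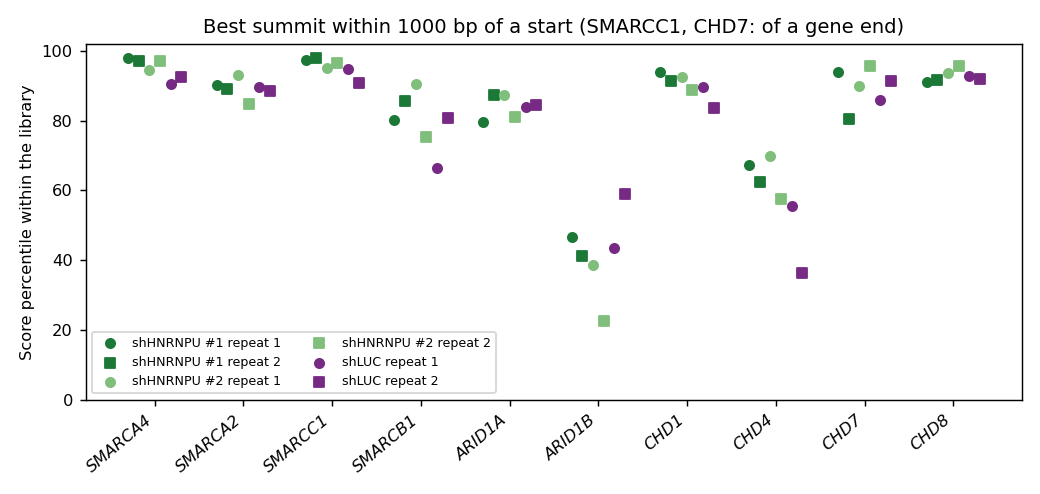
Percentile of the strongest summit within 1000 bp of a listed start (of a gene end for SMARCC1 and CHD7), 1 point per library. All 4 shHNRNPU points are above both shLUC points at SMARCA4, SMARCC1 and CHD4, and no gene shows the reverse.

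All 8 genes with a listed start had a summit there in all 6 libraries, against 68.4% of protein-coding genes with a listed start. The percentile was higher in all 4 shHNRNPU libraries at 2 of the 8 (SMARCA4 and CHD4) and lower at 0. Over the genome the shares were 15.1% and 7.24%, so start summits were in general more often higher than lower. SMARCC1 and CHD7, scored at a gene end, are outside this count. Both had a summit there in all 6 libraries, and that of SMARCC1 was higher in all 4. Among the 30 loci present in all 6 libraries, 5 were higher in all 4 shHNRNPU libraries and 2 were lower, against 10.9% and 13.9% over the genome. By distance, 3 of the 10 within 1000 bp of a listed protein-coding start were higher (at SMARCA4, CHD4 and the neighbouring gene SLC2A11) and 0 were lower, against 13.9% and 8.07% of such loci, and 2 of the other 20 were higher and 2 lower, against 9.31% and 16.9%. The other 20 include the sites at the ends of SMARCC1 and CHD7, which had no listed start. Without shLUC repeat 2, 12 of the 30 loci in all remaining libraries were higher. Without shHNRNPU #1 repeat 2, 5 of 32 were lower, and without shLUC repeat 1, 6 of 31. Leaving out a library loosens the call, and genome shares at these settings were not computed.

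**Figure D5:**
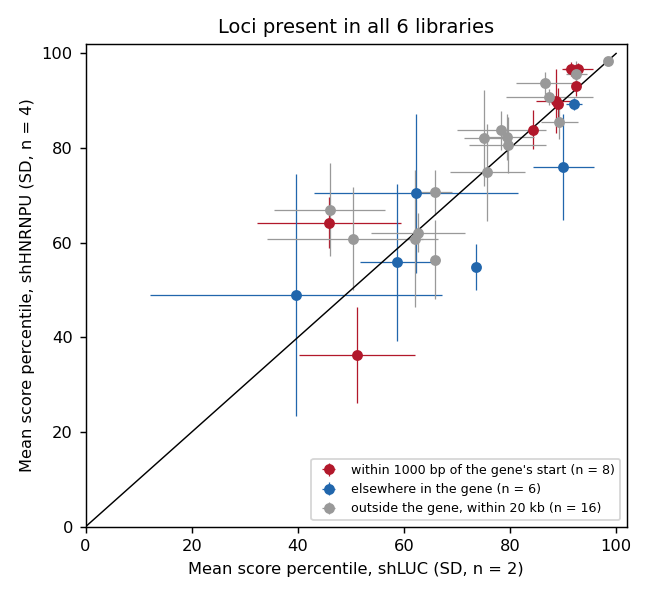
Mean score percentile of the 30 loci present in all 6 libraries, with shLUC on the horizontal axis and shHNRNPU on the vertical axis. Bars are SDs (n = 2 and n = 4) and the line marks equal values. Most points lie near the line, and the CHD4 start (45.9 against 64.3) and the ARID1A gene body site at 26744242 are among those away from it.

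By the matching rule, each summit at these 30 loci lay within 250 bp of the locus centre. The choice of loci thus limited how far summit positions could vary. The range over the 6 libraries had a median of 93 bp and a maximum of 329 bp, against a median of 108 bp over all loci in 6 libraries. Positions did not overlap between the groups at 5 of 30, or 16.7%, against 14.1% of all such loci, a share near the background. They were the CHD4 start site, the ARID1B site at 157021522, the CHD8 site at 21456266 and sites in the flanks of CHD7 and SMARCB1, and their ranges were 51 to 122 bp. CHD1 is not among the 30, since its summits were too far apart to form 1 locus.

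Promoter sequence was searched on both strands of the 250 bases before each listed start. The table matched 8 of the 10 genes, with 13 starts. The GC box letters GGGCGG occurred at 7 of the 13 starts, against 42.6% of 35116 RefSeq promoters, and CCAAT at 4, namely a start each of ARID1B, CHD1, CHD8 and SMARCB1, against 32.0%. TATAAA occurred at 1 start, of SMARCA2 (10.7% of all). The letters CCGGAAGT (ETS, 3.42%), AAGATGGCG (YY1, 0.652%), GCGCATGCG (NRF1, 1.64%) and TGACGTCA (CRE, 1.65%) were in none of the 13.

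A list of 48 other remodeller genes, all in the gene table, was examined in the same way. It held 23 other subunits of BAF, PBAF and ncBAF, 6 CHD genes, 11 NuRD partners of CHD4 and 8 genes of the ISWI and INO80 families. Summits were fewer in all 4 shHNRNPU libraries at 3 genes and more at 3, against 3.92% and 3.55% of genes with a summit. The genes with fewer were all BAF or PBAF subunits, from a family that made up 23 of the 48 genes. The same family also held 1 of the genes with more. SMARCC2, the paralogue of SMARCC1, had 4, 4, 4 and 3 summits against 6 and 7, ACTL6A had 2 in each against 3 and 3, and PHF10 had 2, 3, 3 and 3 against 4 and 4. Those with more were the BAF subunit SMARCD3 (5, 6, 5 and 5 against 3 and 4), the NuRD subunit MTA1 (10, 8, 8 and 8 against 6 and 6) and the histone-binding RBBP7 (3, 3, 4 and 3 against 2 and 2). Lost loci were 4 of the 150 present in both shLUC libraries (2.67%), at SMARCC2, PHF10, BICRAL and RBBP4. Gained loci were 2 of 136 (1.47%), at CHD5 and MTA1. Both shares were below those over the genome.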

How the data were processed

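ATAC-seq was performed on H1 cells in 4 shHNRNPU and 2 shLUC libraries. The submitters' processing notes name cutadapt, Bowtie2, SAMtools, MACS2, deepTools and hg38, with no versions. The deposited lists hold 1 bp summits of peaks called in each library, with the −log10 q-value as the score, all above the value for a q of 0.05, and the authors did not scale scores between libraries. Whole lists were ranked into percentiles, and summits within 250 bp of a centre were joined into loci, strongest centre first. This was done in Python 3.11.15 with numpy 2.4.6 and pandas 2.3.3. The joining was tested on simulated lists. Gene ends and starts came from RefSeq on GRCh38. Groups followed the sample titles. The strongest start locus and the strongest other locus of each gene, every lost or gained locus and the 5 genes most like CHD1 were eligible to be named, and other loci and genes named were chosen after their values were seen. The genes, the lists of other remodellers and markers and the comparisons were chosen with earlier results of these data known, so no test was run. Alternatives were the match distance, window, absence distance, score minimum, list size and leaving out each library.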

Additional observations from a re-analysis of the deposited data

Results flagged for a closer look

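In 3 cases a single shHNRNPU library had a summit count that stood apart from the other 3, which were equal, by the gap-to-range rule for 4 values (Dixon). They were 3 summits around SMARCC1 in #2 repeat 1 (4 in the others), 1 summit around CHD1 in #1 repeat 2 (2 in the others) and 8 summits around CHD4 in #1 repeat 2 (7 in the others). Each gap is 1 summit. Chance flags about 1 in 20 groups of continuous values, but with whole counts 3 equal values and 1 other always meet the rule, so that rate does not apply to these small counts. At CHD1 the missing summit was the weak one near position 98839878, not the one at the start.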

How the results depend on the processing

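The results recomputed under the alternatives numbered 236, of which 182 stayed within the tolerance, 54 moved and 0 reversed. The CHD1 displacement used summits within 1000 bp of the start at every setting. The window settings could thus not move it, yet they are among the 182. A reversal was scored only for the SMARCA2 count and the CHD1 displacement. Other differences in summit counts did change sign. The difference over the 10 genes went from -2.5 to 0.5 without shLUC repeat 1. With a score of at least 5, ARID1A went from 1.5 to -0.25 and ARID1B from -2.5 to 0.25. With gene bodies alone, CHD1 went from -0.25 to 0.5, ARID1A from 1.5 to -0.25 and CHD4 from -0.25 to 0.25. The CHD4 difference was also 0.75 with a score of at least 5 and 0.25 without shLUC repeat 2. Matching within 500 bp gave 3 lost and 0 gained loci, with 0 displaced summits beside either. Gene bodies alone gave 3 lost, 0 gained, 0 and 0 displaced, 9 loci in all 6 libraries, 1 of them higher, and 0 genes with fewer summits. Windows of 50 kb gave 2 genes with fewer summits (SMARCA2 and CHD8). Calling absence only beyond 1000 bp gave 3 lost and 0 gained. With this rule, with matching within 500 bp or with gene bodies alone, the CHD1 site was not among the lost loci. A score of at least 5 gave 1 lost locus with a displaced summit and 1 gene with more summits (SMARCB1), and lists of one size gave 1 such locus and 0 genes with fewer.

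Leaving out each library in turn gave 5 to 17 lost and 2 to 3 gained loci, with displaced summits beside 1 to 6 and 0 to 2 of them. Over the genome the share lost then ranged from 7.05% to 18.9%, and the share gained from 4.84% to 9.62%. Leaving out a library gave 30 to 32 loci in all remaining libraries, of which 2 to 6 were lower and 5 to 12 higher. It gave 1 to 3 genes with fewer summits and 0 to 1 with more. Genome shares of these last counts were not computed. The difference in summits over the 10 genes ranged from -5.5 to 0.5, and that at SMARCA2 from -3.75 to -1.75. Without shLUC repeat 2, SMARCC1 and SMARCB1 joined SMARCA2. The CHD1 displacement ranged from 411.83 to 498.25 bp. With 2 control libraries and unknown depth, a site that was not called may be below the calling threshold.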
